A study of Mus musculus with 2 samples.

Results

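Peak-poor windows are stretches of 1 Mb of the mouse autosomes (build mm9) in which few places were found enriched for 5-hydroxymethylcytosine (5hmC). They were chosen by the numbers of peaks in the deposited lists: windows of chromosomes 1 to 19 from 4 Mb on, up to the window before the chromosome's last peak, with 1 to 15 peaks in both lists together. A peak belongs to the window that holds its midpoint. The rule kept 207 of 2386 windows, and their 2329 peaks, of 121661 in the series, are described here. Of these, 1061 were AA-labelled peaks and 1268 were no-AA-labelled peaks. All 207 windows held at least 1 peak of each list.

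The study compared embryonic stem (ES) cells from 129SvEv mice with ascorbic acid (AA, vitamin C; 100 µM, 24 h) and without it, at 1 library per group. The label of the second library names no incubation, and its place without AA rests on its title and the series' design. In both libraries, 5hmC in sheared genomic DNA was tagged chemically with biotin, pulled down and sequenced. The header of each list carries the run name of the other sample. The lists are therefore called AA-labelled and no-AA-labelled as recorded. Should the headers be right, every difference below between the lists has the opposite sign. The peak caller MACS kept 11907082 AA-labelled tags (aligned reads, at most 1 per position) and put their fragment length at 229 bp. Of the no-AA-labelled library it kept 18398162, at 165 bp.

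5hmC is made from 5-methylcytosine by the Tet dioxygenases, of which Tet1 and Tet2 are active in ES cells. In mammals it lies almost entirely at CpG dinucleotides, and in ES cells it is known to be enriched in gene bodies and at distal regulatory elements. Mammalian chromosomes alternate between gene-rich stretches dense in CpG and gene-poor stretches with few CpGs. Genes and base composition of the windows were not analysed here, since no annotation or genome sequence of build mm9 was used, so positions stand without gene names and no sequence is printed.

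The windows made up 8.68% of those eligible but held 1.91% of the AA-labelled and 2.07% of the no-AA-labelled peaks of the eligible windows. The median window held 5 AA-labelled peaks (range 1 to 10) and 6 no-AA-labelled peaks (range 1 to 11). These numbers follow from the rule and are no finding. The limit cut through a smooth range: 60 windows had 14 or 15 peaks and 60 had 16 or 17. Peaks just inside the limit had a median fold enrichment of 10.32 (AA-labelled) and 8.89 (no-AA-labelled), and peaks just outside it had 10.51 and 8.89. Just inside, 66.0% of the AA-labelled and 57.6% of the no-AA-labelled peaks overlapped a peak of the other list, and just outside 63.5% and 55.4% did. A further 8 windows held no peak at all and are not members. 6 of them formed 1 stretch on chromosome 7, from 40 to 46 Mb.

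The fewest peaks were in a window of chromosome 11 and a window of chromosome 4, with 3 each. On chromosome 11, from 39 Mb on, the AA-labelled peak at chr11:39883597-39884351 had 24 tags and a fold enrichment of 14.04. Its no-AA-labelled counterpart at chr11:39883711-39884314 had 22 tags and 7.41-fold. A further no-AA-labelled peak with 24 tags lay beside it at chr11:39882696-39883325. Everything before them in this window, 883 kb from its first base, was without a peak. On chromosome 4, from 112 Mb on, no peak was shared: the AA-labelled peak had 14 tags and the no-AA-labelled peaks 16 and 17. 4 windows had 4 peaks each, of which 3 are described. The window at 92 Mb of chromosome 11 held 2 places, both called in both lists. The first of these had 69 AA-labelled tags and 65 no-AA-labelled (chr11:92455602-92457296 in the AA-labelled list), and the second had 37 and 24. The window at 113 Mb of chromosome 4, next to the one with 3 peaks, had 1 shared place, with 17 AA-labelled tags and 16 no-AA-labelled. The window at 116 Mb of chromosome 12 also had 1 shared place, with 15 and 20 tags. The emptiest windows thus ranged from places with many tags in both lists to peaks near the smallest count that was called, which was 11 tags in the AA-labelled members and 12 in the no-AA-labelled members.

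**Figure D1:**
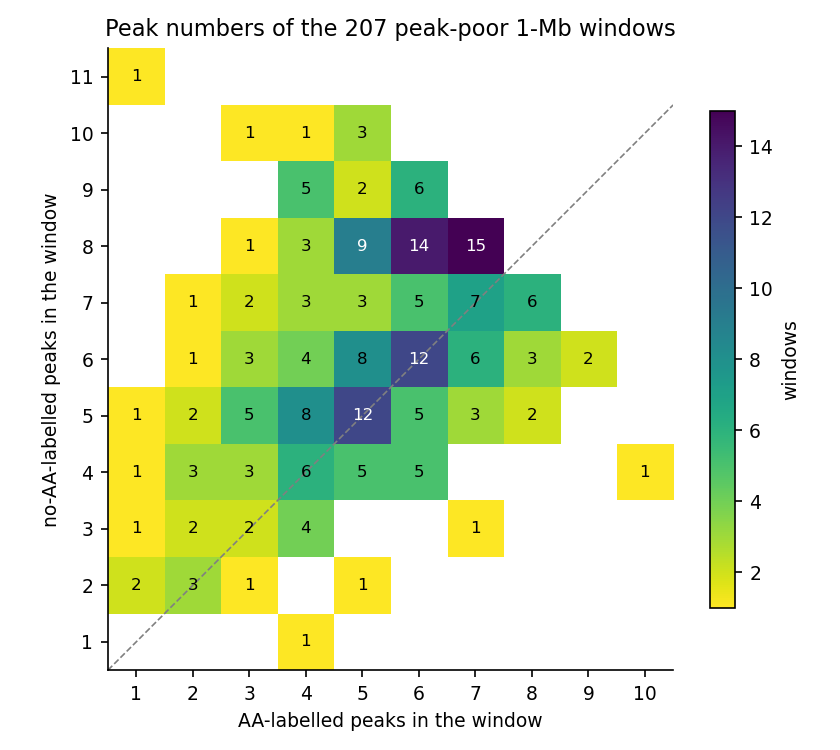
Numbers of AA-labelled peaks (x axis) and no-AA-labelled peaks (y axis) in each of the 207 peak-poor windows; the number in a cell is the count of windows there, and the dashed line marks equal numbers. In 119 windows the AA-labelled list had fewer peaks, in 42 the numbers were equal and in 46 it had more.

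The windows were spread unevenly over the autosomes. Chromosome 12 had the largest share, with 19 of 117 windows (16.2%), followed by chromosome 15 (13 of 99, 13.1%) and chromosome 6 (19 of 145, 13.1%). Chromosome 9 had the smallest, with 2 of 119 (1.68%), and chromosome 13 had 4 of 116 (3.45%). With the eligible windows of each chromosome split into 3 equal parts, 61 members lay in the part nearest the chromosome's start, 79 in the middle part and 67 in the last part. The order of chromosomes is not simply that of their typical window. Chromosome 8, whose median window held 74 peaks of both lists, the most of any autosome, still had 12 members of 127 windows (9.45%).

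**Figure D2:**
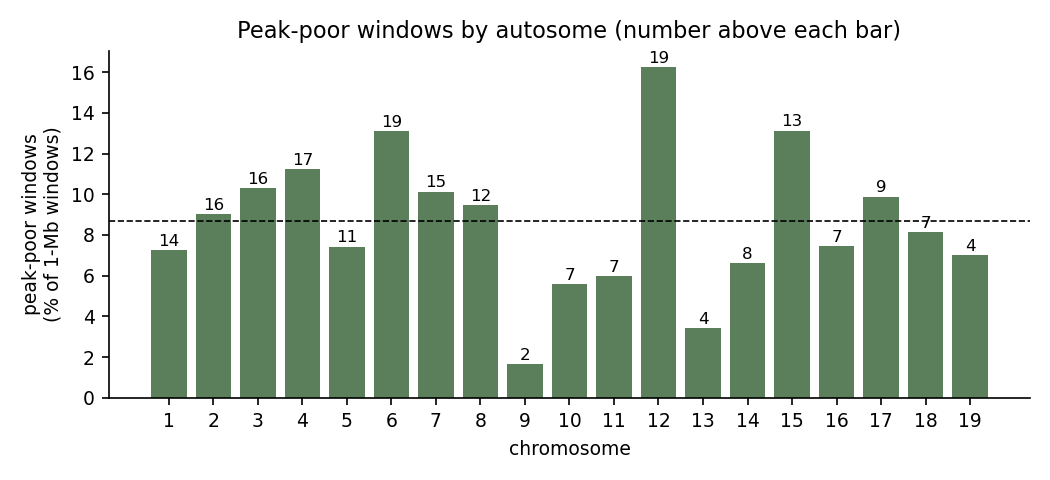
Peak-poor windows as a percentage of the eligible 1-Mb windows of each autosome (bars), with their number above the bar; the dashed line is the share over all autosomes, 8.68%. Chromosomes 12, 15 and 6 stand highest, at 13.1% to 16.2%, and chromosome 9 lowest, at 1.68%.

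Peak-poor windows often lay next to each other. Of the 207 members, 96 (46.4%) touched another member, and of the 384 windows next to a member 25.0% were members themselves, against 8.68% of all eligible windows. The median window next to a member held 23 peaks of both lists, against 48 over all eligible windows. The members formed 152 runs, of which 111 were single windows, 31 had 2 windows and 7 had 3. The longest run covered 5 windows, from 16 to 21 Mb of chromosome 15, with 28 AA-labelled peaks and 32 no-AA-labelled, of which 17 and 16 were shared. Runs of 4 windows lay on chromosome 6 from 74 to 78 Mb, with 16 AA-labelled peaks and 23 no-AA-labelled, and on chromosome 12 from 95 to 99 Mb, with 27 and 27. The first 2 of the runs of 3 windows in chromosome order were on chromosome 4 from 76 to 79 Mb (12 AA-labelled peaks and 19 no-AA-labelled) and on chromosome 6 from 44 to 47 Mb (17 and 16). In the run on chromosome 6 from 74 Mb, AA-labelled peaks had 12 to 81 tags (median 21) and no-AA-labelled peaks 13 to 65 (median 22), close to the medians of all members.

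Inside a member, the longest stretch without a peak of either list had a median of 331 kb and ranged from 143 to 961 kb. The widest lay on chromosome 8, from 20038830 to the end of its window at 21000000, followed by one on the same chromosome from 57000001 to 57943753 (944 kb). The next were on chromosome 11 from 39000001 (883 kb), chromosome 8 from 56209187 (791 kb) and chromosome 7 from 39223327 (777 kb). Stretches were cut at the ends of their windows, so some go on beyond them. The widest borders a window of chromosome 8 without a peak, from 21 to 22 Mb. Those of chromosome 8 from 56209187 and from 57000001 adjoin and form a single longer stretch. The one on chromosome 7 borders the empty stretch of that chromosome. The peak lists do not tell a stretch without 5hmC from one where no read can be placed.

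The peaks of peak-poor windows had fewer tags but a higher fold enrichment than those of other windows. Fold enrichment is the authors' value, the height of tags at the summit over the background that the caller took for that peak. Its median was 10.48 in AA-labelled members (quartiles 8.91 and 12.74) and 7.71 in the 54568 AA-labelled peaks of the other windows. In the no-AA-labelled list it was 8.89 (7.79 and 10.54) against 6.93 in 59986 peaks. The median AA-labelled member had 21 tags in 881 bp, against 28 tags in 1039 bp in the other windows. The median no-AA-labelled member had 22 tags in 674 bp, against 28 tags in 783 bp. The caller's p was 1e-10 or lower in 43.4% of the AA-labelled members (95% Clopper-Pearson interval 40.4% to 46.5%), against 21.9% in the other windows. In the no-AA-labelled list the share was 35.6% (32.9% to 38.3%) against 17.5%. All these values come from the lists that chose the windows, so they are a description, and no test was made.

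The background in that ratio differed between the windows. The caller is known to take the higher of a genome-wide mean and the mean of the 10 kb around the peak. Where the genome-wide mean was used, the fold enrichment is a whole number of tags times a constant, 0.990 in the AA-labelled and 0.889 in the no-AA-labelled list. Within a tolerance of 0.0051, 48.4% of the AA-labelled members (45.4% to 51.5%) had such a value, against 15.5% of the peaks in other windows. Of the no-AA-labelled members 51.9% (49.1% to 54.7%) did, against 17.8%. At the genome-wide mean a 10-kb stretch holds 44.1 AA-labelled or 68.1 no-AA-labelled tags. Peaks that alone held more tags than that had such values in 0.785% and 0.70% of cases in the whole lists, against 21.3% and 20.3% of the remaining peaks. The height at the summit of members at the genome-wide background had a median of 10 tags in both lists, the same as in other windows.

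These measures changed in steps with the number of peaks per window. In the AA-labelled list the share at the genome-wide background was 48.4% in peak-poor windows, 42.7% in windows of 16 to 30 peaks, 29.9% at 31 to 45, 17.4% at 46 to 60 and 7.28% above. For no-AA-labelled peaks, in the same order, it was 51.9%, 45.1%, 33.2%, 19.7% and 8.31%. The median fold enrichment fell along the same classes to 6.93 in the AA-labelled and 6.22 in the no-AA-labelled list. Tag density within peaks did not follow: its median was 2.07 tags per kb, scaled to 1000000 kept tags, for AA-labelled members, 2.05 at 31 to 45 peaks and 2.31 above 60. By these values the peak-poor windows were the end of a gradient and lay close to the windows of 16 to 30 peaks.

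**Figure D3:**
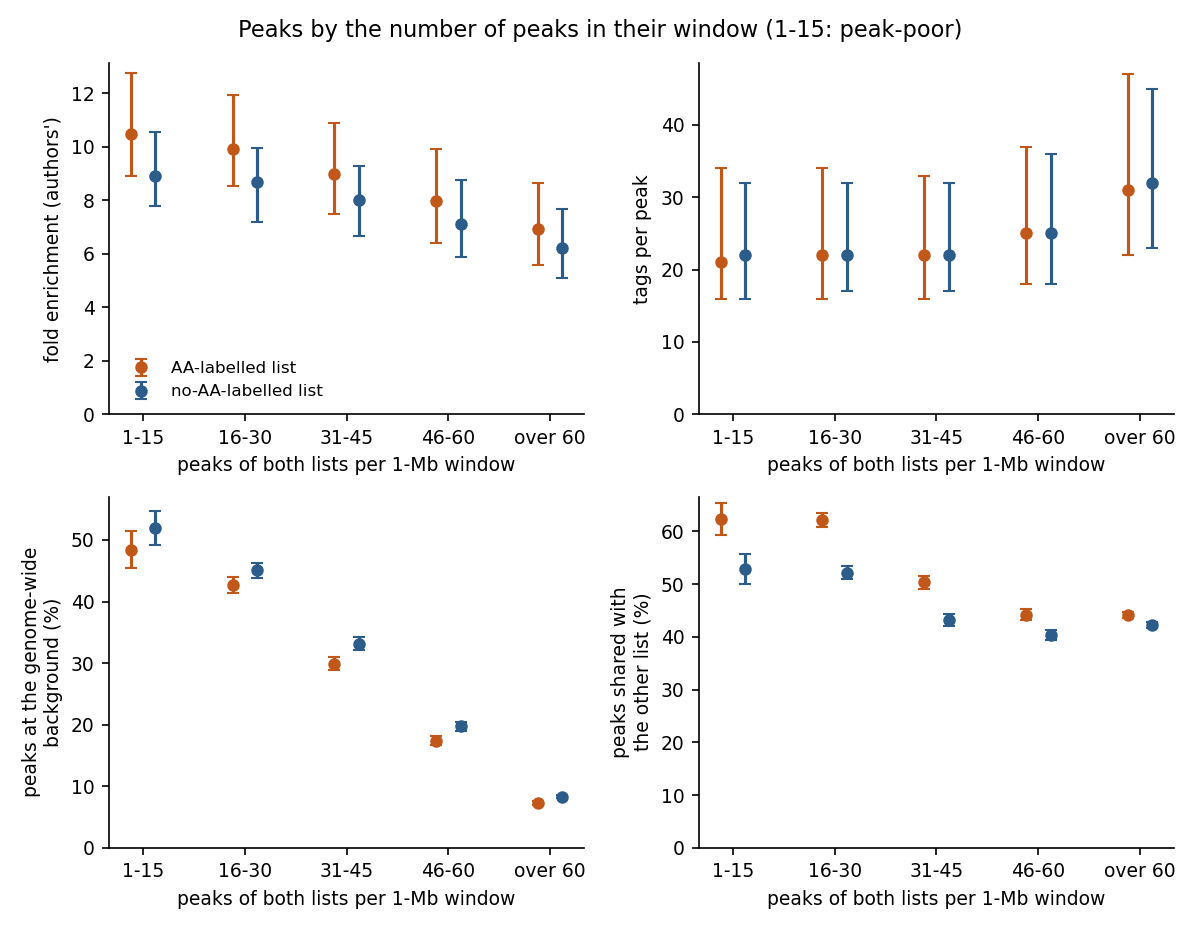
Peaks by the number of peaks of both lists in their 1-Mb window (x axis; 1 to 15 is peak-poor), for the AA-labelled and the no-AA-labelled list. Points in the upper panels are medians of fold enrichment and of tags per peak with quartiles as bars; points in the lower panels are percentages with 95% Clopper-Pearson intervals. Fold enrichment, the share at the genome-wide background and the share called in both lists are higher in peak-poor windows than in windows of over 60 peaks, and tags per peak are lower.

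Members lay far apart. The nearest peak of the same list was at a median of 60.7 kb from an AA-labelled member, against 13.3 kb in the other windows, and at 41.9 kb from a no-AA-labelled member, against 12.1 kb. A neighbour within 10 kb was nevertheless found for 127 of the AA-labelled members (12.0%) and for 311 of the no-AA-labelled members (24.5%). Spacing depends on the number of peaks and so on the rule.

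The first comparison between the libraries asked whether the same places were called with and without AA in these windows. Of the AA-labelled members, 662 overlapped a no-AA-labelled peak by at least 1 bp (62.4%, Clopper-Pearson 59.4% to 65.3%). Of the AA-labelled peaks in other windows 46.7% did (46.3% to 47.1%). Of the no-AA-labelled members, 670 were shared (52.8%, 50.05% to 55.6%), against 43.0% in the other windows (42.6% to 43.4%). AA-labelled peaks covered 0.506% of the bases of peak-poor windows and 3.01% of the others, and no-AA-labelled peaks 0.475% and 2.49%. The shared percentage was thus higher where less of the sequence was covered. Windows of 16 to 30 peaks had nearly the same shares, at 62.2% of AA-labelled and 52.2% of no-AA-labelled peaks.

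By window, every AA-labelled peak was shared in 31 of 207 members and no AA-labelled peak in 4. Every no-AA-labelled peak was shared in 15 members and none in 4. Shared members were the stronger ones. Their median was 27 tags in the AA-labelled list, against 16 tags for unshared members, and 29 tags in the no-AA-labelled list, against 17. Of the unshared members, 70.4% (AA-labelled) and 66.7% (no-AA-labelled) were at the genome-wide background, and of the shared ones 35.2% and 38.7%.

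Part of the higher sharing went with the higher scores of the members. The score is 10 times the −log10 of the caller's p. At scores of 50 to 60, 31.9% of the AA-labelled members were shared (25.6% to 38.7%), against 30.5% of the peaks in other windows. At 75 to 100 it was 58.3% (50.8% to 65.6%) against 49.3%, and at 100 to 150 it was 75.4% (68.8% to 81.1%) against 66.8%. At 150 and above it was 93.8% (90.1% to 96.4%) against 90.9%. In the no-AA-labelled list the members' interval took in the value of the other windows in each of the 5 score classes. For instance, 72.2% of members were shared at 100 to 150 (66.3% to 77.6%), against 72.6% elsewhere. At like tag counts the gap differed by class. Under 16 tags, 28.0% of AA-labelled members (22.6% to 33.8%) and 20.4% of no-AA-labelled members (15.6% to 25.9%) were shared, against 31.1% and 18.2% elsewhere. Of members with 31 to 50 tags, 90.2% of AA-labelled (85.1% to 94.0%) and 84.8% of no-AA-labelled peaks (79.7% to 89.0%) were shared, against 51.03% and 52.7% in other windows.

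**Figure D4:**
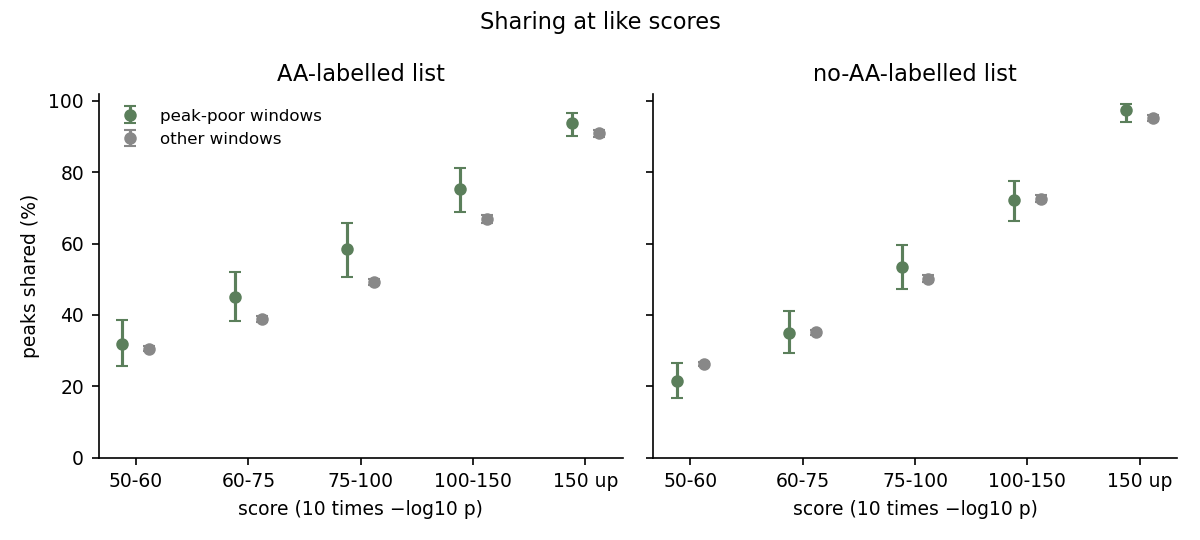
Percentage of peaks shared with the other list (y axis) by class of score (x axis, 10 times −log10 p), in peak-poor and in other windows, for the AA-labelled list on the left and the no-AA-labelled list on the right; bars are 95% Clopper-Pearson intervals. Sharing rises with the score in both lists, and in the no-AA-labelled list the values of other windows lie within the members' intervals.

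The gap was wider among peaks that were not at the genome-wide background. Among peaks at the genome-wide background, 45.3% of AA-labelled members (41.0% to 49.7%) and 44.9% of other AA-labelled peaks were shared. Among the rest, 78.4% of members (74.7% to 81.8%) were shared, against 47.0% of other peaks. For no-AA-labelled peaks it was 39.4% (35.6% to 43.2%) against 33.0% at the genome-wide background, and 67.4% (63.5% to 71.1%) against 45.2% among the rest. AA-labelled members of the second kind had a median score of 131, against 72.05 for such peaks in other windows, but a median of 33 tags against 31. For no-AA-labelled peaks the median scores were 103 and 68.5, with 31 tags in both. The part of the score in this gap was not tested.

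The places of highest mean fold enrichment that were called in both lists were led by chr4:70038620-70039702, with 59 AA-labelled tags at 16.82-fold and 77 no-AA-labelled tags at 22.17-fold. The next was chr15:47081205-47082123, with 33 tags at 22.64-fold in the AA-labelled list and 25 tags at 15.58-fold in the no-AA-labelled list. At chr3:47976142-47976979 the values were 51 tags at 21.04-fold and 47 tags at 16.53-fold. These summits lay 40, 6 and 13 bp apart in the lists. The other 2 of the first 5 had a much higher fold in the AA-labelled list. At chr7:101310165-101310907 the AA-labelled peak had 32 tags at 26.20-fold, the highest fold of all AA-labelled members, and the no-AA-labelled peak 15 tags at 10.67-fold. At chr1:50957022-50957689 the tags differed little, with 28 AA-labelled at 22.77-fold and 26 no-AA-labelled at 13.34-fold.

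Unshared AA-labelled members were led by chr10:64204279-64205220, with 33 tags (95% Poisson interval 22.7 to 46.3) at 20.44-fold. It was followed by chr2:81759470-81760304 with 26 tags and chr1:117696008-117696873 with 39 tags, both at 19.10-fold. The next were chr5:81278701-81279528 with 29 tags at 18.81-fold and chr2:141056366-141057721 with 42 tags at 17.79-fold. Unshared no-AA-labelled members had lower folds and were led by chr3:140039989-140040562, with 25 tags (16.2 to 36.9) at 16.01-fold. The other 4 of the first 5, all at 15.12-fold, were chr1:149206641-149207152 with 24 tags, chr15:20467024-20467507 with 20, chr5:51527208-51527787 with 21 and chr10:101356284-101357050 with 28. Their backgrounds differed: all 5 no-AA-labelled places were at the genome-wide background, and 1 of the 5 AA-labelled places was. A peak missing from a list had not passed the cutoff there, and its tags are not in the files, so no ratio can be given.

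The second comparison was of the numbers of places called in the libraries. The AA-labelled list had 1061 peaks and the no-AA-labelled list 1268, a ratio of 0.837 (95% interval 0.770 to 0.909, counting error only). The other windows had a ratio of 0.910 (0.899 to 0.920). The members' ratio was not the lowest of the classes: it was 0.823 (0.793 to 0.854) in windows of 16 to 30 peaks, 0.849 at 31 to 45, 0.901 at 46 to 60 and 0.944 (0.930 to 0.959) above. The excess of no-AA-labelled peaks was not seen among the stronger members, nor among the stronger peaks of other windows. Among members with a p of at most 1e-10 the lists had 461 and 451 peaks, a ratio of 1.02 (0.896 to 1.17). In other windows the ratio at this p was 1.14 (1.11 to 1.17). Where the fold enrichment was at least 10, 566 AA-labelled members stood against 365 no-AA-labelled members, which is 1.55 times as many (1.36 to 1.77). In other windows it was 1.92 times as many (1.86 to 1.98). This fold cutoff was not alike in the lists. At the genome-wide background, 1 tag of height gave 0.990-fold in the AA-labelled and 0.889-fold in the no-AA-labelled list. Members covered 1.05 Mb in the AA-labelled and 0.983 Mb in the no-AA-labelled list, a ratio of 1.07, against 1.21 in the other windows. With 1 library per group, depth and fragment length cannot be told apart from the label.

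By chromosome the ratio lay below 1 on 17 of the 19 autosomes. The exceptions were chromosome 9, where 11 AA-labelled stood against 8 no-AA-labelled peaks, and chromosome 18, with 40 and 38. Chromosome 5 had 55 and 82 peaks, a ratio of 0.671 (0.468 to 0.955), the only interval that did not reach 1. Most chromosomes thus leaned the same way, but the intervals of the other 18 took in 1. The AA-labelled list was also the shorter one in the whole series, with 57827 peaks against 63834. Ratios by chromosome were not set against those of other windows, so this lean cannot be called particular to the members.

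The window with the largest difference was on chromosome 11 from 111 Mb, where 1 AA-labelled stood against 11 no-AA-labelled peaks, none of them shared. The 11 peaks had 13 to 31 tags and spanned 873 kb, and 6 of them were at the genome-wide background. The AA-labelled peak had 14 tags. Next were chromosome 5 from 47 Mb, with 3 AA-labelled peaks and 10 no-AA-labelled, and chromosome 4 from 78 Mb, with 4 and 10. In both, every AA-labelled peak was shared. The largest difference the other way was on chromosome 2 from 86 Mb, with 10 and 4 peaks. There the AA-labelled peaks had 12 to 74 tags, and the no-AA-labelled peaks, all of them shared, had 32 to 77. Chromosome 18 from 59 Mb (7 and 3 peaks) followed, and then chromosome 10 from 123 Mb (4 and 1), which was the window with the fewest peaks of 6 that tied at a difference of 3. They are the ends of 207 windows, and at such numbers the intervals are wide. The ratio was 0.0909 (0.00211 to 0.625) on chromosome 11 and 2.50 (0.721 to 10.9) on chromosome 2. These intervals are not adjusted for the choice among all windows.

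The third comparison was of tag density at the places that both lists call. Of the shared members, 649 of each list overlapped 1 to 1, and 13 AA-labelled and 21 no-AA-labelled members took part in larger overlaps and were left out. Tag density scaled to kept tags had a median of 2.33 for AA-labelled and 1.98 for no-AA-labelled peaks, as tags per kb at 1000000 kept tags. The log2 ratio had a median of 0.25 (95% interval over pairs 0.23 to 0.29), against 0.22 (0.21 to 0.22) in the 24997 pairs of other windows. It was above 0 in 490 of 649 pairs, 75.5% (72.0% to 78.8%), against 75.1% elsewhere. The sign rests on the scaling: without scaling the median was -0.37, and with scaling to tags in peaks it was -0.27. Pairs of members were spread slightly wider, with quartiles of 0.0095 and 0.49, against 0.0018 and 0.45.

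A density over 2-fold higher in the AA-labelled list was found in 17 member pairs, or 2.62% (1.53% to 4.16%), against 1.47% of all 26954 pairs of the series. It was over 2-fold lower in 1 member pair (0.154%), against 0.0223% of all pairs. In tags per peak, whatever its length, 109 member pairs (16.8%) were over 2-fold higher, against 20.5% of all, and 4 (0.616%) were over 2-fold lower, against 0.408%. The ratio was higher in stronger pairs, as elsewhere. It was 0.11 in the 360 member pairs whose lower score was under 100, 0.33 in the 231 at 100 to 200 and 0.47 in the 58 at 200 and above. In the other windows these medians were 0.18, 0.33 and 0.47. Summits of member pairs were at a median of 97 bp from each other, against 114 bp elsewhere, and 51.5% (47.5% to 55.4%) were within 100 bp, against 45.98%.

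**Figure D5:**
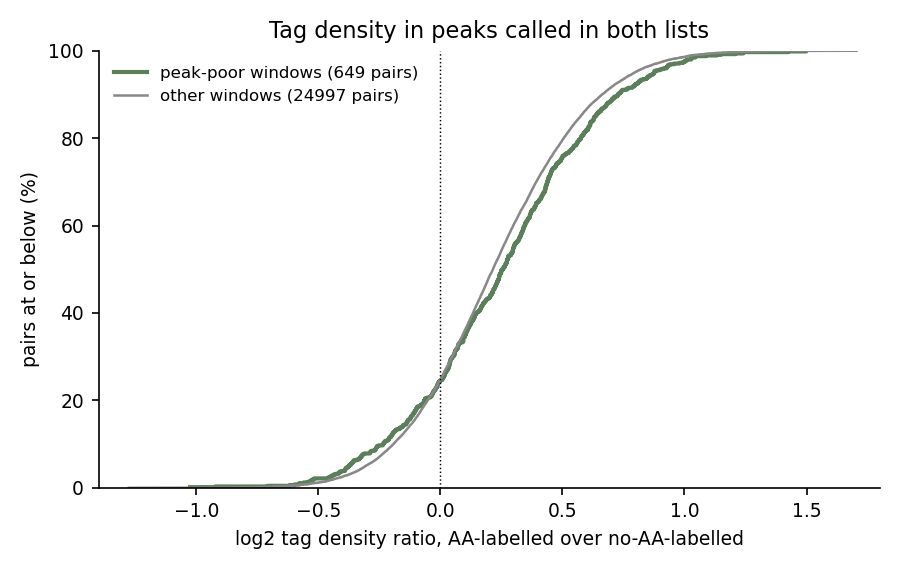
Cumulative percentage of 1-to-1 pairs (y axis) by the log2 ratio of tag density, AA-labelled over no-AA-labelled, scaled to kept tags (x axis), in peak-poor and in other windows; the dotted line marks equal density. Both curves cross it near 25%, and that of peak-poor windows is slightly wider, with medians of 0.25 and 0.22.

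Among the 384 member pairs in which a peak had 30 tags or more, the highest density ratio was at chr12:28587503-28588744, with a log2 ratio of 1.499 (0.79 to 2.25) from 59 AA-labelled against 24 no-AA-labelled tags. The next were chr7:22937008-22938052, with 50 and 31 tags and 1.43 (0.75 to 2.12), and chr2:100605779-100607571, with 90 and 40 tags and 1.24 (0.69 to 1.82). The lowest was at chr3:112140584-112141301, at -1.03 (-2.03 to -0.12) from 13 AA-labelled against 50 no-AA-labelled tags. The next, chr12:23432007-23433116 with 21 and 33 tags and chr1:131697913-131698576 with 13 and 32, had intervals that reached past 0. The 3 highest and the lowest pair kept their side in tags per peak, at 1.93, 1.32, 1.798 and -1.32. These intervals cover counting error only and are not adjusted for the choice among all pairs.

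A few members held far more tags than the rest, which was noticed after the values were seen. Members with at least 100 tags numbered 17 in each list. They were 1.60% of the AA-labelled and 1.34% of the no-AA-labelled members but held 11.6% and 16.1% of their tags. In other windows such peaks were more frequent, at 2.32% and 1.71% of the peaks, and held 9.08% and 7.47% of the tags. The largest lay on chromosome 8 at chr8:56203929-56209186, with 712 AA-labelled tags and 1240 no-AA-labelled. Beside it, chr8:56200875-56203712 had 354 and 593 tags. In the window of chromosome 8 from 20 Mb, all 3 AA-labelled peaks (median 216 tags) and all 5 no-AA-labelled peaks (median 524 tags) lay before the empty stretch of 961 kb. On chromosome 17, chr17:39979822-39985983 had 595 and 641 tags at 3.40-fold and 3.0-fold, the lowest folds of all members. Of these 4 large places, those on chromosome 8 had a lower scaled density in the AA-labelled list, with log2 ratios of -0.22 (-0.36 to -0.09) and -0.12 (-0.31 to 0.08) at 56 Mb and of -0.19 (-0.36 to -0.01) for the largest shared pair at 20 Mb. The place on chromosome 17 had 0.47 (0.31 to 0.63). The caller used no control library, so these counts have no input to be set against. The results without members of 100 or more tags or without chromosome 8 kept their direction, and the density ratio was then 0.25 and 0.27.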

How the data were processed

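Genomic DNA of ES cells was enriched for 5hmC and sequenced, 1 library with AA and 1 without. Per the submitters' processing notes, BWA 0.5.9-r16 and MACS 1.4.2 were used with build mm9. Per the file headers, peaks were called on each library alone, with no control, at a p cutoff of 1e-05, a regional background over 10 kb and at most 1 tag per position. The deposited tag counts are whole numbers, not scaled to depth. The deposited score is 10 times the −log10 p, and the deposited fold enrichment is a ratio to the caller's background.

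From these lists, windows, overlaps and pairs were computed with Python 3.11.15, pandas 2.3.3, NumPy 2.4.6 and SciPy 1.17.1, after the code was checked on simulated lists. Windows were compared with the other eligible windows that held a peak. Neither group has a second library, so no replicate error can be given and no test was made. Intervals at 95% are exact and cover counting error only. Those of medians come from the ranked pairs, taken as independent, and describe the median, not the spread of the pairs. Peaks and windows are not replicates.

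Regions were named by rule: the 5 windows with the fewest peaks, the 5 longest runs and empty stretches, the 3 largest differences of peak numbers each way, the 5 shared and 5 unshared places of highest fold, and the 3 highest and lowest density ratios. Members and lists were chosen with earlier results of these data known.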

Additional observations from a re-analysis of the deposited data

How the results depend on the processing

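The settings that left out peaks of 100 or more tags or chromosome 8 were chosen after seeing the data. Of 96 recomputed values, 65 stayed within the interval of the value reported or, for the number of windows, within 1.5 times of it (191 with windows shifted by 500 kb, in place of 207). Peak numbers, as the log2 of AA-labelled over no-AA-labelled peaks, gave -0.26. This became 0.032 among peaks with p 1e-10 or lower, 0.63 among peaks of 10-fold enrichment or more, and 0.26 when each list took the label in its header. Covered length on the same scale, 0.092, moved to 0.29, 0.98 and -0.092 in these settings. The log2 density ratio of pairs, 0.25, became -0.37 with raw tags, -0.27 when scaled to the tags inside peaks, -0.25 with labels from the headers, 0.36 at p 1e-10 or lower, 0.56 in tags per peak and 0.31 without the windows that hold an empty stretch of 300 kb. The shared percentage was 62.4 (AA-labelled) and 52.8 (no-AA-labelled). With 50% reciprocal overlap it became 56.5 and 47.2, for AA-labelled peaks it became 59.1 with a limit of 10 peaks per window and 32.9 at 10-fold or more in both lists, and for no-AA-labelled peaks 65.0 at p 1e-10 or lower. Its lead over other windows, 15.7 and 9.84 percentage points, was 22.1 and 17.8 at p 1e-10 or lower, and for AA-labelled peaks 12.2 with a limit of 10 peaks and 12.0 at 10-fold or more. The p and fold cutoffs held for both lists, so a strong peak with a weaker counterpart counted as unshared. With counterparts of any score, AA-labelled members were shared in 75.4% at scores of 100 to 150 and 93.8% above, against 66.8% and 90.9% elsewhere. For no-AA-labelled members it was 72.2% and 97.4%, against 72.6% and 95.2%. The log2 ratio of median fold enrichment, members over other windows, was 0.44 (AA-labelled) and 0.36 (no-AA-labelled), and became 0.33 and 0.26 at p 1e-10 or lower and 0.059 and 0.030 at 10-fold or more, where the cutoff itself narrows the range. For no-AA-labelled peaks it was 0.35 with a limit of 10 peaks, 0.37 with 20, 0.35 without chromosome 8 and 0.35 without peaks of 100 or more tags. A limit of 10 peaks gave 80 windows and one of 20 gave 376, since fewer or more windows pass. Where a value moved for no reason given here, the cause was not tested. No paired analysis was possible because neither group has a replicate.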

Other observations

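No-AA-labelled members stood close together more often than AA-labelled members. A neighbour of the same list within 2 kb was found for 38 AA-labelled (3.58%) and 136 no-AA-labelled members (10.7%), against 3.10% and 6.14% of the peaks in other windows. No-AA-labelled peaks were also called with the shorter fragment length, 165 bp against 229 bp in the AA-labelled list, and its part in this was not tested.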
